A study of Homo sapiens with 3 samples.

Results

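The cells were DLD1-TetOff, a human colorectal adenocarcinoma line that carries the doxycycline (DOX)-repressed transactivator, and a clone of it in which FLAG-tagged mouse Cdx1 is silent while DOX is present. Both Cy5 samples of this clone were compared, non-induced cells at 24 h and non-induced cells at 12 h, and no exogenous Cdx1 was meant to be made in either. They are 2 of the 6 dye channels on 3 arrays. The other channels held the induced cells of the same clone at 24 h and 12 h (Cy3) and the non-induced and induced cells of a Cdx2 clone at 24 h. Samples were chosen by dye, clone and time as the labels give them, and no measured value entered that choice. Of the 17559 gene symbols on the array, 15848 had a probe above the blank spots in Cy5 at both times.

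All cells carried the DLD1 genotype and the Tet-Off transactivator, and non-induced cells were kept in 0.5 µg/mL DOX. Each clone grew out from a single cell under drug selection, so clone and transgene cannot be told apart. At each time there was 1 array, and nothing says that its RNA came from more than 1 culture, so culture time cannot be told apart from culture, RNA preparation, dye coupling or hybridization. The sources used here do not say when the non-induced cells were plated or fed. Titles, source names and the study's own legend place non-induced RNA in Cy5. The cell line field of the labels has the dyes the other way round, so the name non-induced is the likely one. The order of the subtraction, 24 h minus 12 h, does not depend on it. Because there was no replicate, every difference below is a value without a test.

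Cultured epithelial cells leave traces of their conditions in a few well-known transcript programmes. In the integrated stress response, kinases that sense amino acid shortage, unfolded protein, viral RNA or haem loss slow general translation while the transcription factor ATF4 is made, and ATF4 switches on DDIT3, CHAC1 and enzymes of amino acid synthesis. Interferon-induced genes follow ISGF3 at interferon-stimulated response elements, and the CXCL chemokine cluster follows NF-kB. Metallothioneins, small metal-binding proteins, follow the zinc sensor MTF1. Ribosome biogenesis genes are driven by MYC and are lowered as growth slows.

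Promoters of some of these genes carry the elements named for those factors, and short stretches are shown for genes whose values are given below. The stretches come from RefSeq promoters of GRCh38.p14, which run from 250 bases before to 50 after the transcription start, and capitals mark each match to the searched letters on either strand. No capital run holds overlapping matches. A match is a description of the letters and not a measured site. The first pair carries the C/EBP-ATF response element, TGATGNAA, at chr15:40953242-40953289 (CHAC1, plus strand) and chr7:97872449-97872496 (ASNS, minus strand).
CHAC1: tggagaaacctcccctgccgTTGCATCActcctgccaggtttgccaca
ASNS: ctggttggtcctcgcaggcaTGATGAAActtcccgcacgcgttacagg
This element was found in 4 of the 19 stress response genes with a promoter in the table (21.1%) in 3.62% of all 35116 promoters and in 3.36% of those of measured genes. The core of the interferon-stimulated response element, GAAANNGAA, occurs 2 times in each of the following, at chr10:89392488-89392549 (IFIT1) and chr10:89327822-89327904 (IFIT3), both plus strand.
IFIT1: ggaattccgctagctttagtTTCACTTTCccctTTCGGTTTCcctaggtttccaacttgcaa
IFIT3: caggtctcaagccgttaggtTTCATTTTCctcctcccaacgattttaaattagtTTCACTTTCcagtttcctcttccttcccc
It was present in 18 of 26 interferon list promoters (69.2%), in 8.11% of all promoters and in 8.97% of those of measured genes. An NF-kB site, GGAATTTCC, lies in 4 chemokine promoters at chr4:73740458-73740506 (CXCL8, plus), chr4:73869295-73869343 (CXCL1, plus), chr4:74099244-74099292 (CXCL2, minus) and chr4:74038739-74038787 (CXCL3, minus).
CXCL8: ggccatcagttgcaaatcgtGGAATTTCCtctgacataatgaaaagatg
CXCL1: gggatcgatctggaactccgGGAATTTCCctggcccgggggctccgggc
CXCL2: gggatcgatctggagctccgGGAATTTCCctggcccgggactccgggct
CXCL3: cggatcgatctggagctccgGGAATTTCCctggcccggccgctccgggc
The site occurred in 9 of 18 promoters of the NF-kB list (50%), in 0.461% of all promoters and in 0.59% of those of measured genes. Metal response elements were searched in the forms TGCGCNC and TGCACNC and are shown for MT1X at chr16:56682300-56682416 and MT1H at chr16:56669634-56669753, both plus strand.
MT1X: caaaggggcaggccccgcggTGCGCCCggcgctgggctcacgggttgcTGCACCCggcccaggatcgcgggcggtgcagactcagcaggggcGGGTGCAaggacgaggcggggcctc
MT1H: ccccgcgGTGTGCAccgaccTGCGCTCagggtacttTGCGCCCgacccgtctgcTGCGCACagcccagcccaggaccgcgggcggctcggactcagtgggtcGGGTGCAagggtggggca
Of 5 metallothionein list promoters, 3 held the first form (60%) and 5 the second (100%), against 20% and 12.1% of all promoters and 33% and 15.7% of the promoters of 12716 measured genes.

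Before normalization the 24 h channel was the dimmer one. The median intensity of gene probes was 41.21 units at 24 h and 47.83 units at 12 h, and the upper quartile was 154.4 and 189.6. One set of positive control spots had medians of 42026 units at 24 h and 46990 at 12 h, and another had 11332 and 16456. Above the blank spots were 90.7% of probes at 24 h and 90.2% at 12 h. The brightest colon epithelial markers stood far above the blank spots at both times. KRT18, a keratin of simple epithelia, had a normalized intensity of 30858 at 24 h and 38531 at 12 h, and EPCAM had 9320 and 11889 in the same order. Other markers of that list were dim: LGALS4 read 84.3 at 24 h and 91.6 at 12 h, and CEACAM5 61.2 and 54.4. Of 14 markers of fibroblasts, immune cells and endothelium on the array, 9 were above blank at both times, between 54.7 and 162 at 24 h and between 54.9 and 177 at 12 h. DCN, a fibroblast proteoglycan, read 162 at 24 h and 170 at 12 h, and CD14, a monocyte receptor, 133 and 177. VIM, a mesenchymal filament gene, stood at 65.8 at 24 h and 60.2 at 12 h, where the scale begins near an offset of 50. The human probes for CDX1 read 65.6 at 24 h and 66.0 at 12 h. They were not made for the mouse transgene and cannot check its silence.

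The 2 cultures were similar across most genes on this scale, and more so among dim genes, whose differences the offset compresses. The log2 difference had a median of 0.00 and an SD of 0.19 over 15848 genes. Within 0.25 of 0 lay 85.4% of genes, and the 5th and 95th percentiles were -0.30 and 0.32. Of the 3962 dimmest genes, 99.8% lay within 0.25 of 0, with an SD of 0.05. Of the 3962 brightest genes, 64.9% did, with an SD of 0.29 and percentiles of -0.44 and 0.49. At least 2-fold higher at 24 h were 12 genes (0.0757%), and at least 2-fold lower were 5 (0.0315%). At the lower bar of 1.5-fold there were 154 higher genes (0.972%) and 71 lower ones (0.448%). The balance turned after median centring alone, to 71 higher and 220 lower genes at 1.5-fold and to 6 and 11 at 2-fold, and with the blank mean subtracted in place of the offset there were 718 and 562 at 1.5-fold. All but 5 of the higher and 1 of the lower genes were brighter than the median gene (a normalized intensity of 108), as the offset compresses differences of dim genes. As a guide to technical spread, the SD between the differences of 2 probes for the same gene was 0.12 (1962 genes), and 2 of these genes had probes more than 1 apart on the log2 scale. That spread covers probes on the same pair of arrays and not the spread between cultures.

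**Figure D1:**
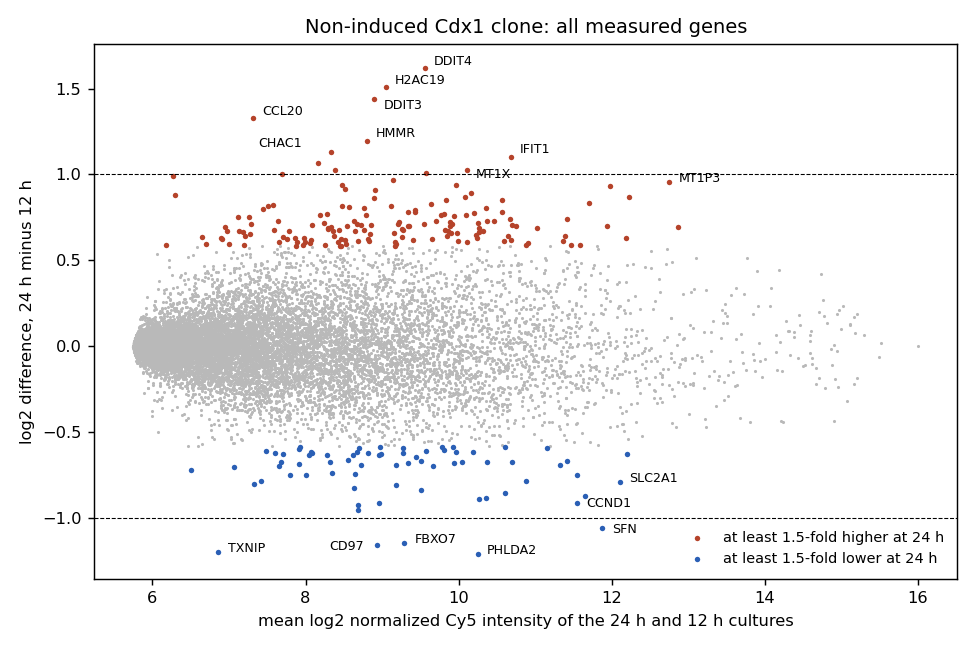
Each point is one of 15848 genes, placed by its mean log2 normalized Cy5 intensity (x axis) and its log2 difference, 24 h minus 12 h (y axis), with genes at least 1.5-fold apart in colour and dashed lines at 2-fold. The 154 genes above and the 71 below the 1.5-fold bar are mostly of middle to high intensity, and DDIT4 lies highest at 1.62.

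Genes of the integrated stress response led the higher side. DDIT4, a stress-induced brake on mTORC1, had a normalized intensity of 1318 at 24 h and 429 at 12 h, a log2 difference of 1.62. DDIT3, the transcription factor CHOP, had 785 at 24 h and 290 at 12 h (1.44). CHAC1, which degrades glutathione and carries the ATF element printed above, had 478 at 24 h and 219 at 12 h (1.13). These 3 genes were 2.19-fold to 3.07-fold brighter in the later culture.

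The list had the highest median of the 39. Of its 24 measured genes, 7 passed 1.5-fold upward (0.972% of all genes did) and 0 downward (0.448%), 21 were above 0, and the median was 0.38 against 0.00 for all genes. After median centring alone, 4 of the 24 passed 1.5-fold upward with a median of 0.25, against 71 of all 15848 genes. With the blank mean subtracted in place of the offset 11 did with a median of 0.49, against 718 of all genes. SESN2, a sestrin that restrains mTORC1, read 405 at 24 h and 237 at 12 h (0.77). PSPH, the last enzyme of serine synthesis, read 1202 at 24 h and 761 at 12 h (0.66). ATF4 itself read 762 at 24 h and 491 at 12 h (0.63), and MTHFD2, a mitochondrial folate enzyme, completed the 7 at 0.59. Members short of 1.5-fold included ASNS, asparagine synthetase, which holds the element as well and had 2468 at 24 h and 1963 at 12 h (0.33). PHGDH, the first enzyme of serine synthesis, had 4621 at 24 h and 4551 at 12 h (0.02). Of 10 amino acid transporters, SLC7A11, the cystine carrier, was higher with 176 at 24 h and 111 at 12 h (0.67). SLC3A2, its heavy-chain partner, was lower with 2010 at 24 h and 3258 at 12 h (-0.70). Their list median was 0.05, and -0.09 when channels were only centred on their medians. AARS1 and CARS1, cytosolic tRNA synthetases outside the list and picked after their values were seen, differed by 0.72 and 0.63.

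Chemokine genes under NF-kB formed another group of higher values. CCL20, the ligand of CCR6, had 253 at 24 h and 101 at 12 h (1.33), and CXCL8, a neutrophil attractant, had 292 at 24 h and 146 at 12 h, just past 2-fold. CXCL5 had 3536 at 24 h and 2119 at 12 h (0.74). CXCL3 had 200 at 24 h and 119 at 12 h (0.75), CXCL2 had 125 and 80.7 (0.64), and CXCL1 had 127 and 84.3 (0.60), each at 24 h and then 12 h. All 6 genes that passed 1.5-fold upward, of 21 measured, encode chemokines, and none passed it downward. Over all genes, 0.972% passed it upward and 0.448% downward. Whether the probes of CXCL1, CXCL2 and CXCL3 read each other's transcripts was not tested. Among the chemokines short of 1.5-fold, CXCL6 differed by 0.01 and CCL28 by -0.01. CXCL6 also holds the site but was dim, with 54.7 at 24 h and 54.2 at 12 h. Other NF-kB targets differed little: TNFAIP3, a feedback inhibitor, differed by 0.05, NFKBIA by 0.26 and ICAM1, an adhesion molecule, by -0.20. The median of the list was 0.06, near that of all genes.

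A set of interferon-induced genes was higher as well. IFIT1, which binds foreign RNA ends, had 2408 at 24 h and 1121 at 12 h (1.10). Its neighbours IFIT3 and IFIT2 had 788 and 736 at 24 h against 402 and 417 at 12 h (0.97 and 0.82). HERC5, the ligase for ISG15, had 1275 at 24 h and 753 at 12 h (0.76). CXCL10 (0.75) and OASL (0.65) also passed 1.5-fold, which made 6 of 32 measured genes higher and 0 lower (0.972% and 0.448% of all genes). ISG15 itself, with 7429 at 24 h and 7410 at 12 h, differed by 0.00, and MX1, an antiviral GTPase, by 0.11, although both promoters hold the printed core. The median of the list was 0.11.

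**Figure D2:**
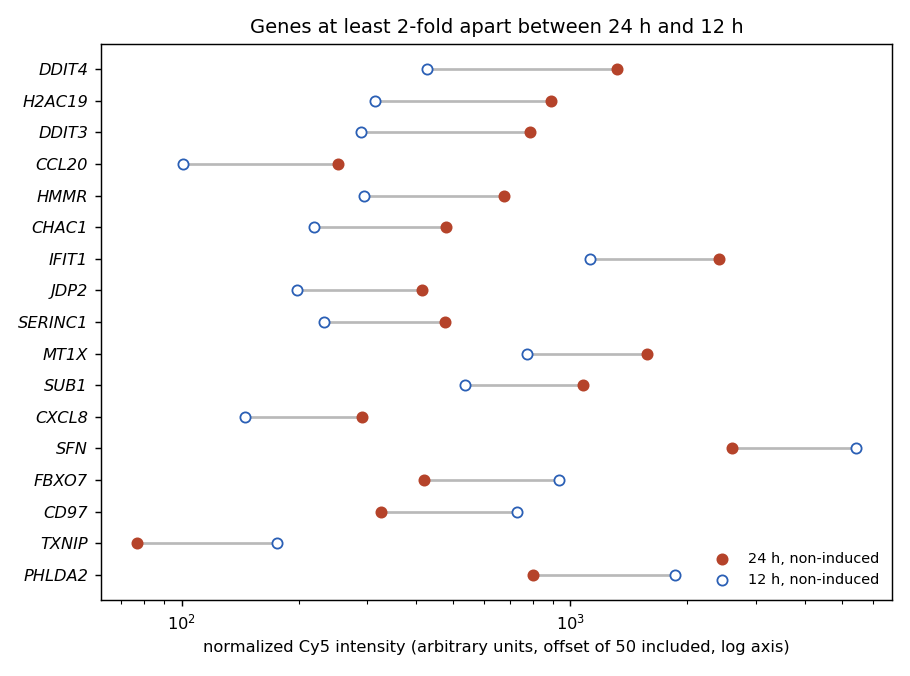
Normalized Cy5 intensity (log axis, arbitrary units with an offset of 50) of the 17 genes at least 2-fold apart, with filled points for 24 h and open points for 12 h of the non-induced Cdx1 clone. There is 1 sample at each time and so no error bar. In the upper 12 genes the filled point lies to the right, and in the lower 5 it lies to the left.

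Several metallothionein probes were higher too. MT1X had 1573 at 24 h and 772 at 12 h (1.03), MT1B had 6482 at 24 h and 3552 at 12 h (0.87), and MT1H had 4425 at 24 h and 2486 at 12 h (0.83). MT2A had 10476 at 24 h and 7342 at 12 h (0.51). MT1E went the other way, with 199 at 24 h and 299 at 12 h (-0.59). Probes of this family, and that of the related sequence MT1P3 (9591 at 24 h and 4946 at 12 h), may read more than one of its near-identical transcripts, so the members are not independent. SLC30A1, the zinc exporter that responds to the same sensor and also holds the second element, differed by 0.01. Over 9 measured genes the list had 3 higher and 1 lower at 1.5-fold (0.972% and 0.448% of all genes) and a median of 0.28.

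Several mitotic genes were also higher, while others were not. HMMR, a spindle-associated hyaluronan receptor, had 675 at 24 h and 295 at 12 h (1.20). TTK, a spindle checkpoint kinase, had 491 at 24 h and 257 at 12 h (0.94, with 2 probes), and BUB1, DLGAP5 and CENPE passed 1.5-fold at 0.67, 0.69 and 0.67. CDC20, TPX2 and AURKA, which act in the same phase, were below 0 at -0.40, -0.38 and -0.34. Of 29 measured genes, 5 were higher and 0 lower at 1.5-fold, against 0.972% and 0.448% of all genes. In this list 18 were above 0 and 11 below, and the median was 0.24. After median centring alone, 3 were higher (71 of all 15848 genes were) and the median was 0.10. CDKN3, a phosphatase of cyclin-dependent kinases, had 2116 at 24 h and 1295 at 12 h (0.71). The 28 measured DNA replication genes had a median of -0.03 and none passed 1.5-fold, nor did 15623 of all 15848 genes.

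Higher genes outside these groups had other roles. H2AC19, a histone H2A gene with a near-identical neighbouring copy that its probe may also read, had 893 at 24 h and 314 at 12 h (1.51). The 9 measured genes of the histone list, which did not hold H2AC19, had a median of -0.05. None passed 1.5-fold, nor did 15623 of all 15848 genes. JDP2, a repressor of AP-1, had 415 at 24 h and 198 at 12 h (1.07). SERINC1, a serine incorporator family protein, had 476 at 24 h and 233 at 12 h (1.03), and SUB1, a transcription coactivator, had 1075 at 24 h and 535 at 12 h (1.01). In cholesterol synthesis, 17 of 20 genes were above 0 (7735 of 15848 over all genes), with a median of 0.23. At 1.5-fold, 2 of the 20 were higher, against 0.972% of all genes. After median centring alone 1 was, against 71 of all 15848 genes, and the list median was 0.09. HMGCS1, which makes the precursor of mevalonate, had 907 at 24 h and 529 at 12 h (0.78), and SREBF2, the regulator of the pathway, had 454 at 24 h and 301 at 12 h (0.59). Of 32 oxidative phosphorylation genes, 25 were above 0 with a median of 0.12. None of them passed 1.5-fold, nor did 15623 of all 15848 genes.

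**Figure D3:**
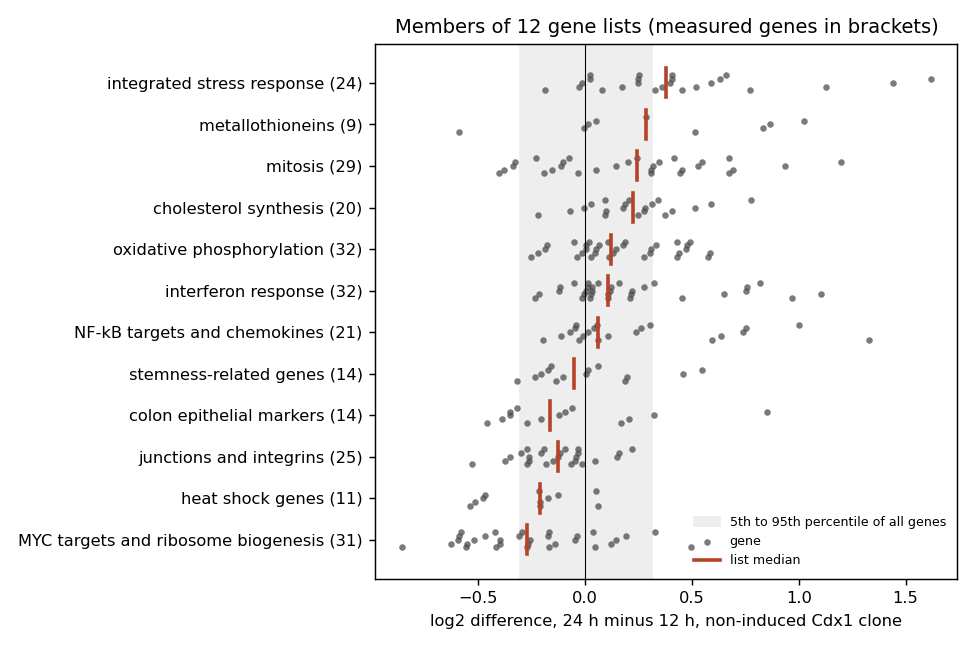
Log2 differences, 24 h minus 12 h (x axis), of the measured members of 12 gene lists (rows, with the number measured), where each dot is a gene, the vertical bar its list's median and the grey band the 5th to 95th percentile of all genes, -0.30 to 0.32. Medians run down the rows between 0.38 for the stress response and -0.27 for MYC targets and ribosome biogenesis. Single genes past the band occur in most lists.

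At least 2-fold lower at 24 h were PHLDA2, TXNIP, CD97, FBXO7 and SFN. PHLDA2, an imprinted restraint on growth, had 800 at 24 h and 1856 at 12 h (-1.21). TXNIP, which binds thioredoxin and curbs glucose uptake, had 76.7 at 24 h and 176 at 12 h (-1.20). Before correction its spot read 34.5 units at 24 h and 150 units at 12 h, and the log2 difference of TXNIP was -2.34 with the blank mean subtracted in place of the offset. CD97, an adhesion G protein-coupled receptor now called ADGRE5, had 326 at 24 h and 728 at 12 h (-1.16), and its 2 probes gave -1.18 and -1.14. FBXO7, an F-box protein, had 420 at 24 h and 932 at 12 h (-1.15). SFN, the epithelial stratifin, had 2605 at 24 h and 5440 at 12 h (-1.06). Just short of 2-fold, SERPINE2, a secreted protease inhibitor, was at -0.956, as CREB3L3 was at 0.994 on the higher side, and the nearest genes inside the bar were SFN at -1.062 and CXCL8 at 1.003.

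Single genes of other lists were also among the lower ones. CCND1, the D-type cyclin of G1 entry, had 2178 at 24 h and 4112 at 12 h (-0.92). It was the 1 lower gene of the 11 measured cyclin D and CDK inhibitor genes, beside 1 higher one (0.448% and 0.972% of all genes). DUSP6, a phosphatase induced by ERK signalling, had 775 at 24 h and 1242 at 12 h (-0.68). SLC2A1, the basal glucose transporter, had 3351 at 24 h and 5800 at 12 h (-0.79). SLC2A1 was the 1 of 20 glycolysis list genes past 1.5-fold (0.448% of all genes were lower and 0.972% higher). The median of that list was -0.08. TNFRSF12A, the receptor for TWEAK, had 906 at 24 h and 1680 at 12 h, with 2 probes at -0.91 and -0.87. LMNA, which encodes lamins A and C, and CORO1A, an actin-binding coronin, differed by -0.88 and -0.91. Across 25 junction and integrin genes, 21 were below 0 (8099 of 15848 over all genes) with a median of -0.13. In this list 0 passed 1.5-fold (15623 of all genes did not pass either). LAMB3, a laminin chain of the epithelial basement membrane, was the farthest at -0.53.

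The list of MYC targets and ribosome biogenesis genes had the lowest median of the 39. NOP56, a core protein of small nucleolar ribonucleoproteins, had 1158 at 24 h and 2097 at 12 h (-0.86). SRM, spermidine synthase, had 3781 at 24 h and 5840 at 12 h (-0.63), and GAR1, which guides pseudouridylation, had 792 at 24 h and 1192 at 12 h (-0.59). TFRC, the transferrin receptor, was the other member past 1.5-fold at -0.59. In all, 4 of 31 genes were lower and 0 higher, against 0.448% and 0.972% of all genes. Below 0 were 24 of the 31 (8099 of 15848 over all genes), and the median was -0.27. After median centring alone, 8 were lower (220 of all 15848 genes were) and the median was -0.40. MYC itself read 216 at 24 h and 237 at 12 h (-0.14), with probes at -0.30 and 0.03. Heat shock genes had a median of -0.21 over 11 genes, with HSPH1 at -0.54 and DNAJB1 at -0.51. None of them passed 1.5-fold, nor did 15623 of all 15848 genes. After median centring alone, 4 of the 11 passed it downward, against 220 of all genes.

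In a list of stemness-related genes, of which the study followed ID1, ID3, MYC and others, 14 of 14 differed by less than 1.5-fold in these non-induced cultures. So did 15623 of all 15848 genes, so the count does not set this list apart. Some members were dim, such as RNF43 with 80.5 at 24 h and 77.1 at 12 h, where the offset compresses differences. ID1 had 2429 at 24 h and 2801 at 12 h (-0.21), ID3 had 981 at 24 h and 1225 at 12 h (-0.32), and ID2, of the same family of differentiation inhibitors, had 1169 at 24 h and 799 at 12 h (0.55). LGR5, the stem cell receptor for R-spondins, had 154 at 24 h and 135 at 12 h (0.19), and CD44 had 215 at 24 h and 253 at 12 h (-0.24). BMI1 differed by 0.46, SOX9 by 0.19, ASCL2 by -0.18, PHLDA1 by -0.16, EPHB2 by -0.10, RNF43 by 0.06, ZNRF3 by 0.01 and ALDH1B1 by 0.00. PROM1, a stem cell surface marker of the study that is outside the list, differed by -0.17. Among colon epithelial markers, TSPAN8, a tetraspanin, was the 1 of 14 past 1.5-fold, with 2027 at 24 h and 1124 at 12 h (0.85). Over all genes, 0.972% passed it upward and 0.448% downward. KRT20, a keratin of differentiated colonocytes, had 304 at 24 h and 418 at 12 h (-0.46). Human CDX2 had 335 at 24 h and 361 at 12 h (-0.11), and CDX1 and CDX4 differed by -0.01 and -0.05.

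The induced cells on the same arrays were read through Cy3. These values share spots, arrays and hybridizations with Cy5 and so are no independent repeat. Across 15276 genes measured in both dyes the log2 differences had a Pearson correlation of 0.55 and a Spearman correlation of 0.51, genes not being independent. The 154 genes at least 1.5-fold higher in Cy5 had a median of 0.69 in Cy5 and 0.52 in Cy3 (153 genes), and the 71 lower ones had -0.68 in Cy5 and -0.60 in Cy3. DDIT3, H2AC19 and SERINC1 were more than 2-fold higher in Cy3 as well, at 1.23, 1.70 and 1.70. TXNIP had Cy3 values of 106 at 24 h and 212 at 12 h, and SFN differed there by -1.22. Several leading genes were nearer 0 in Cy3, with DDIT4 at 0.41, CCL20 at 0.27, CXCL8 at 0.08, MT1X at -0.04 and PHLDA2 at -0.14.

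By list, the medians in non-induced and induced cells were 0.38 and 0.03 for the stress response, 0.28 and -0.06 for metallothioneins, and 0.06 and -0.10 for NF-kB targets. They were 0.24 and 0.38 for mitosis, -0.27 and -0.48 for MYC targets and ribosome biogenesis, and 0.12 and 0.14 for oxidative phosphorylation. The differences between dyes were not tested, since each rests on 1 array at each time and dye and induction cannot be told apart.

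**Figure D4:**
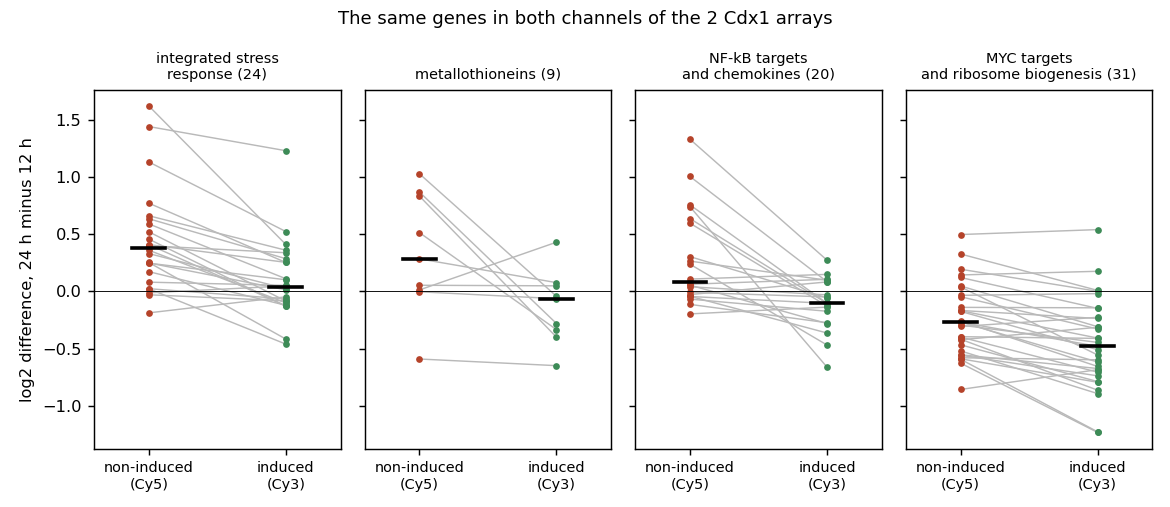
Log2 differences, 24 h minus 12 h (y axis), of the same genes in non-induced cells (Cy5, left) and induced cells (Cy3, right) of the Cdx1 clone for 4 lists, with grey lines joining a gene and black bars at the medians over genes measured in both dyes. Metallothionein lines mostly run downward from left to right, and MYC target and ribosome biogenesis genes are mostly below 0 on both sides.

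The non-induced Cdx2 clone at 24 h gave another culture with DOX at the later time, scaled together with the 2 Cdx1 channels. DDIT4 had 1235 in the Cdx1 clone at 24 h, 1047 in the Cdx2 clone at 24 h and 407 in the Cdx1 clone at 12 h. CHAC1 read 453, 506 and 209 in that order, CXCL8 read 277, 273 and 140, and CCL20 read 241, 284 and 98.3. These 4 genes were thus near the 24 h level in the Cdx2 clone as well. Others lay between the Cdx1 cultures, such as DDIT3 with 740 at 24 h, 478 in the Cdx2 clone at 24 h and 275 at 12 h. HERC5 was lower in the Cdx2 clone at 24 h (568) than in either Cdx1 culture (1198 at 24 h and 711 at 12 h), and CXCL5 was higher (9708, against 3355 and 1991). On the lower side, PHLDA2 had 754 in the Cdx1 clone at 24 h, 1517 in the Cdx2 clone at 24 h and 1742 in the Cdx1 clone at 12 h, so the Cdx2 clone was near the 12 h level there. CORO1A had 344, 199 and 646, and FADS3, a desaturase-like enzyme, had 283, 325 and 537. The Cdx2 clone has no 12 h array here, so clone and time cannot be separated in these values.

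Promoter GC content and the control spots were also described. The promoter GC content of genes at least 1.5-fold higher had a median of 61.5%, that of the lower genes 67.5% and that of all genes 63.3%, with 80.2% of genes having a value, and its rank correlation with the difference was -0.13 across genes. One set of positive control spots had a within-array SD of 0.20 at 24 h and 0.09 at 12 h on the log2 scale, and another had 0.11 and 0.10. The part of these properties in the gene differences was not tested. Probes above blank at a single time gave only bounds. Of 335 genes seen at 24 h alone, PGR, the progesterone receptor, had the largest bound, at least 1.20-fold higher at 24 h. Of 268 seen at 12 h alone, SLC5A7, a choline transporter, had at least 1.10-fold higher signal at 12 h.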

How the data were processed

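Gene expression was measured in DLD1-TetOff cells on 3 two-colour TORAY 3D-Gene arrays hybridised with amplified, dye-coupled RNA. The deposited scanner files give an uncorrected median intensity per spot for Cy5 (635 nm) and Cy3 (532 nm). The scanner's name was not found in labels or headers. The authors' value table, log ratios of the 2 dyes, was not used.

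Cy5 intensity was corrected by normexp over all spots with an offset of 50 (limma 3.58.1, R 4.3.3). Flagged spots were left out. Probes counted as above blank if brighter than the mean plus 2 SD of 2680 blank spots, trimmed by 5% at each end. The Cdx1 24 h and 12 h channels were quantile normalized over gene probes above blank on at least 1 of them. Gene values averaged the probes above blank on both arrays (21637 probes), and 13803 of 15848 genes rested on 1 probe. "Normalized intensity" includes the offset, which compresses differences of dim genes. The number of arrays limits the precision. Symbols from the platform annotation were checked against RefSeq GRCh38.p14: 20236 probes had 1 symbol, none several and 4224 none, and 98 ambiguous symbols were kept.

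Differences are log2, 24 h minus 12 h, with 1 sample a group and no test. A bound for a gene above blank at 1 time sets its signal against the higher of the dim array's lowest signal above blank and its own. Named genes were the 15 highest and 15 lowest among genes brighter than the median, the 5 highest and lowest of all, all CDX and stemness-related genes, up to 4 members of each of the other gene lists with the largest differences and 3 bounds each way; further list members were added after their values were seen. The members and the 39 lists were chosen with earlier results of these data known. Alternatives covered normalization, background correction, filter, probe summary, threshold and array position. The scripts were tested on simulated data.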

Additional observations from a re-analysis of the deposited data

Results flagged for a closer look

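In 13 of the named genes that were at least 1.5-fold higher at 24 h in non-induced cells, the induced cells (Cy3) of the same arrays differed in the opposite direction. None of these differences was tested, and dye and induction cannot be told apart.

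The induced-cell log2 differences, 24 h minus 12 h, were -0.04 for MT1X, -0.23 for MT1P3, -0.28 for MT1B and -0.40 for MT1H, against 1.03, 0.96, 0.87 and 0.83 in Cy5. For chemokines under NF-kB they were -0.11 for CXCL3, -0.66 for CXCL5, -0.13 for CXCL1 and -0.11 for CXCL2, against 0.75, 0.74, 0.60 and 0.64. The interferon-induced genes CXCL10 and OASL had -0.22 and -0.74, against 0.75 and 0.65. TSPAN8 had -0.15 against 0.85, RORA, a nuclear receptor of the circadian clock, had -0.04 against 0.73, and MRPL1, a mitochondrial ribosomal protein, had -0.02 against 0.77. Values of -0.02, -0.04 and -0.11 are smaller than the SD of 0.12 between probes of a gene in Cy5, and -0.13 is close to it. These genes were picked by their Cy5 values and from the named genes alone, so their number gives no share of all higher genes. Higher genes outside the named ones were below 0 in Cy3 as well, such as PCP4 (-0.52), CCL26 (-0.52) and MT1HL1 (-0.45). The 153 genes at least 1.5-fold higher in Cy5 that had a Cy3 value had a Cy3 median of 0.52. Most of the 153 were thus above 0 there.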

How the results depend on the processing

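The 12 higher and 5 lower genes at 2-fold depended on the processing, as counts in the order higher and lower show. They were 6 and 11 after centring each channel on its median without quantile normalization (35.3% of calls higher, against 70.6%), which moved the median of the brighter genes to -0.11. They were 28 and 16 without background correction, 60 and 38 with an offset of 0, 4 and 2 with an offset of 200, 115 and 90 with the blank mean subtracted, and 154 and 71 at 1.5-fold (71 and 220 there after median centring). Of the 17 genes, 10 remained past 2-fold after median centring and 6 with an offset of 200. No filter, a filter at 4 times the threshold (which left out TXNIP), normalization over 3 channels, removal of block medians, loess, the brightest probe and normalization over probes above blank on both arrays (chosen after seeing the data) gave 11 to 13 higher and 5 or 6 lower. All 17 kept their sign wherever they were measured. For 197 named genes, 2013 of 2346 values were within 0.12 of those reported, 333 moved further and 0 called values changed sign. For 39 list medians, 443 of 468 values were within 0.12 and 25 moved further, with amino acid transporters and mitochondrial ribosomal proteins (0.05 and 0.01) at -0.09 and -0.12 after median centring. The causes were not tested. Leaving out a replicate could not be done with 1 sample a group. No paired analysis was possible because each group held 1 sample.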

Other observations

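Small proteins of the mitochondrial inner membrane outside the oxidative phosphorylation list were also higher at 24 h in non-induced cells, picked after their values were seen. COX7B, a cytochrome c oxidase subunit, differed by 0.93, ATP5F1E, a subunit of ATP synthase, by 0.78, and NDUFS4 and NDUFA5, subunits of complex I, by 0.72 and 0.62. PMAIP1, the BH3-only protein NOXA and a target of p53 and ATF4, differed by 0.76, while the 18 measured p53 targets had a median of 0.02. TSC22D3, a glucocorticoid-induced gene, differed by 0.69. On the lower side, PLAUR, the urokinase receptor, F2RL1, a protease-activated receptor, and PRSS8, an epithelial serine protease, differed by -0.62, -0.81 and -0.70.

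Of 3650 probes above blank that carry no gene symbol here, 0 were at least 2-fold apart, against 0.122% of 17987 probes with a symbol. The 12 higher and 5 lower genes at 2-fold were all brighter than the median gene. The brightness of the 2 kinds of probe was not compared, so these counts do not set them apart.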
